A study of Mus musculus with 2 samples.

Results

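The genes described here encode enzymes that modify transfer RNA (tRNA) at positions other than the m7G of the METTL1 pathway. They were chosen by symbol from a list of 58, and 54 of these are described here, from a deposited table of 14694 genes. Elp3, Dus2 and Trmt61b were not analysed here. RNA labelled as coming from mouse lung fibroblasts was sequenced after removal of ribosomal RNA, with 1 library labelled IR and 1 labelled NC, both numbered 4. The labels give neither the meaning of IR and NC nor a strain, genotype, agent, dose, time or age, and their protocol text describes centrifuged and filtered culture supernatants, so whether cells or vesicles were sequenced is not stated. The series as a whole concerns rosmarinic acid in radiation-induced lung fibrosis and the m7G modification of tRNA. Each group had 1 library, so no difference below has a replicate check, no p-value was computed, and every statement compares these 2 libraries and not 2 conditions.

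Transfer RNA carries more kinds of chemical modification than any other RNA. Modifications in the anticodon loop, at the wobble base and at the purine next to the anticodon, tune how codons are read, while methyl groups, pseudouridine and dihydrouridine in the body of the molecule help it to fold and protect it from decay. Most of the enzymes act in the nucleus or cytosol on tRNAs of nuclear genes, and a smaller set acts in mitochondria on the tRNAs of the mitochondrial genome.

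The libraries were of similar depth, with 35219511 reads assigned to genes in IR against 36084512 in NC. For the labelled cell type, 8 of 10 markers had rows, and their total was 4273 CPM (reads scaled to a common library size) in IR against 5352 in NC, mainly from Vim, Fn1 and Col1a2. Of the 7 compared 6 were lower in IR, while Vim was higher (2195 against 1820 CPM). By the 1.5-fold rule given below 3 of them, Col1a1, Fn1 and Col1a2, were called lower (42.9%, against 6.90% of all genes). Dcn, which encodes the fibroblast proteoglycan decorin, was low, at 0.860 CPM in IR against 0.192 in NC. Epithelial markers (4 of 8 found) totalled 2.87 against 1.84 CPM, mostly from Krt19 (67 and 49 reads) and Krt8 (24 and 9), with 0 and 2 reads for Sftpc. Endothelial markers (4 of 4 found) totalled 2.69 against 1.65 CPM, mostly from Kdr (47 and 19 reads, called higher) and Cdh5 (45 and 41), with 1 and 0 reads for Pecam1. Leukocyte markers (2 of 5 found) totalled 83.3 against 60.1 CPM, nearly all of it Cd68, while Ptprc had 4 and 0 reads. Mesothelial markers (2 of 4 found) totalled 97.8 against 197 CPM, nearly all of it Msln, while Upk3b had 6 and 0 reads. The part of these marker differences in the results below was not tested. In RNA from many cells, fewer cells of a type and less RNA per cell cannot be told apart.

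The regions around the transcription starts of 6 members are shown because these genes had the 3 highest and 3 lowest ratios among members with at least 1000 reads and a single start in the RefSeq promoter table (GRCm38.p6), which matched 49 of the 54 members described. Each sequence runs on the gene's strand from 150 bases before the start to 30 bases into the transcript, and capitals mark matches to the motifs named after the sequences. Qtrt1 (chr9:21411687-21411866, plus strand), Elp6 (chr9:110305042-110305221, plus strand) and Trmt61a (chr12:111677955-111678134, plus strand) had the higher ratios, and Nsun2 (chr13:69611866-69612045, plus strand), Osgep (chr14:50924864-50925043, minus strand) and Mto1 (chr9:78448060-78448239, plus strand) the lower ones.
Qtrt1: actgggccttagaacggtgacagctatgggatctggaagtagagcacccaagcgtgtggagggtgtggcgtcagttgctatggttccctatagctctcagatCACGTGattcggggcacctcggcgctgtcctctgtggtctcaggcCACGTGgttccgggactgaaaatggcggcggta
Elp6: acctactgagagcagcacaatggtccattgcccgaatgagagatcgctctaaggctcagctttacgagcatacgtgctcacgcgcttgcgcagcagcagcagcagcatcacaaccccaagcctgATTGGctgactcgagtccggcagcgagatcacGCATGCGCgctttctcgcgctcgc
Trmt61a: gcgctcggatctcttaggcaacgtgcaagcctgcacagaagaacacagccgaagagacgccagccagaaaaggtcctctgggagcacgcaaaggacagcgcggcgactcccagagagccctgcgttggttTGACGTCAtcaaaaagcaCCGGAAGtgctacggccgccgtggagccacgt
Nsun2: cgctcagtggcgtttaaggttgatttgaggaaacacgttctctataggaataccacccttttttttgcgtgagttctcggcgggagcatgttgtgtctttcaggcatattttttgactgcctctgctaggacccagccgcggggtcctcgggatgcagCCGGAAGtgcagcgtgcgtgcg
Osgep: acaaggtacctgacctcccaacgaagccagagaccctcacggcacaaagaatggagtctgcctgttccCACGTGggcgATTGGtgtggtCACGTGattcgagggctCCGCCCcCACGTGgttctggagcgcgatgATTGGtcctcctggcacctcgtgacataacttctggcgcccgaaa
Mto1: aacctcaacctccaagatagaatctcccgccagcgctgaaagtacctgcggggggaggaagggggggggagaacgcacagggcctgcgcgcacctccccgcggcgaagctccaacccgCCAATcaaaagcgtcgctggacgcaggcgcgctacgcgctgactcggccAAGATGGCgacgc

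The motifs searched, on both strands, were the ETS core CCGGAAG, the GC box GGGCGG, the CCAAT box CCAAT, the E-box CACGTG, the NRF1 core GCATGCGC, the TATA box TATAAA, the YY1 core AAGATGGC and the cyclic AMP response element TGACGTCA. Over all members, 17 of 61 windows held the ETS core (27.9%), against 7.12% of all 32851 windows of the same length. The TATA box was in 1 of 61 member windows (1.64%) and in 8.37% of all windows. The GC box (36.1% against 31.0%) and the CCAAT box (36.1% against 27.0%) were closer. The E-box was in 9.84% against 5.09%, and the NRF1 core in 8.20% against 2.16%. The YY1 core was in 4.92% against 1.60%, and the cyclic AMP response element in 8.20% against 1.56%. The median member window had 13 CG dinucleotides, against 5 over all windows. The 61 member windows came from 49 genes, some with several windows. All windows came from 27025 genes and were not matched to the members by expression or CG content. Whether these shares are particular to the members was not tested. In the sequences above, the E-box occurs 2 times in Qtrt1 and 3 times in Osgep, which lie at opposite ends of the ratios, and the ETS core occurs in both Trmt61a and Nsun2. These matches describe letters in the windows and do not show that a factor binds there.

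The reads of the members spanned a wide range. Trmt2a had the most over both libraries, with 5398 reads in IR against 5009 in NC, and Pus3 the fewest, with 12 and 22. The ratio of IR to NC was compared for the 50 members with at least 50 reads over both libraries. The other 4, Trdmt1, Alkbh8, Trit1 and Pus3, are given by their reads only. In CPM per kilobase of annotated exon, called the level per length below, the highest members were the pseudouridine synthase Pus1 (58.7 in IR and 50.7 in NC) and the Elongator subunit Elp5 (56.6 and 47.2). The lowest of the compared members on that scale was Osgepl1 in IR (0.0793, with 0.228 in NC) and Trmt13 in NC (0.107, with 0.313 in IR). Annotated exons include those of isoforms that may not be expressed, so these levels are approximate. Because it is not stated whether reads were counted by strand, the 10 members whose exons overlap another gene over at least 10% of their length are uncertain: Pus3, Adat3, Ctu2, Pus1, Trmt13, Trub2, Adat2, Trmt2a, Osgepl1 and Nsun2.

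**Figure D1:**
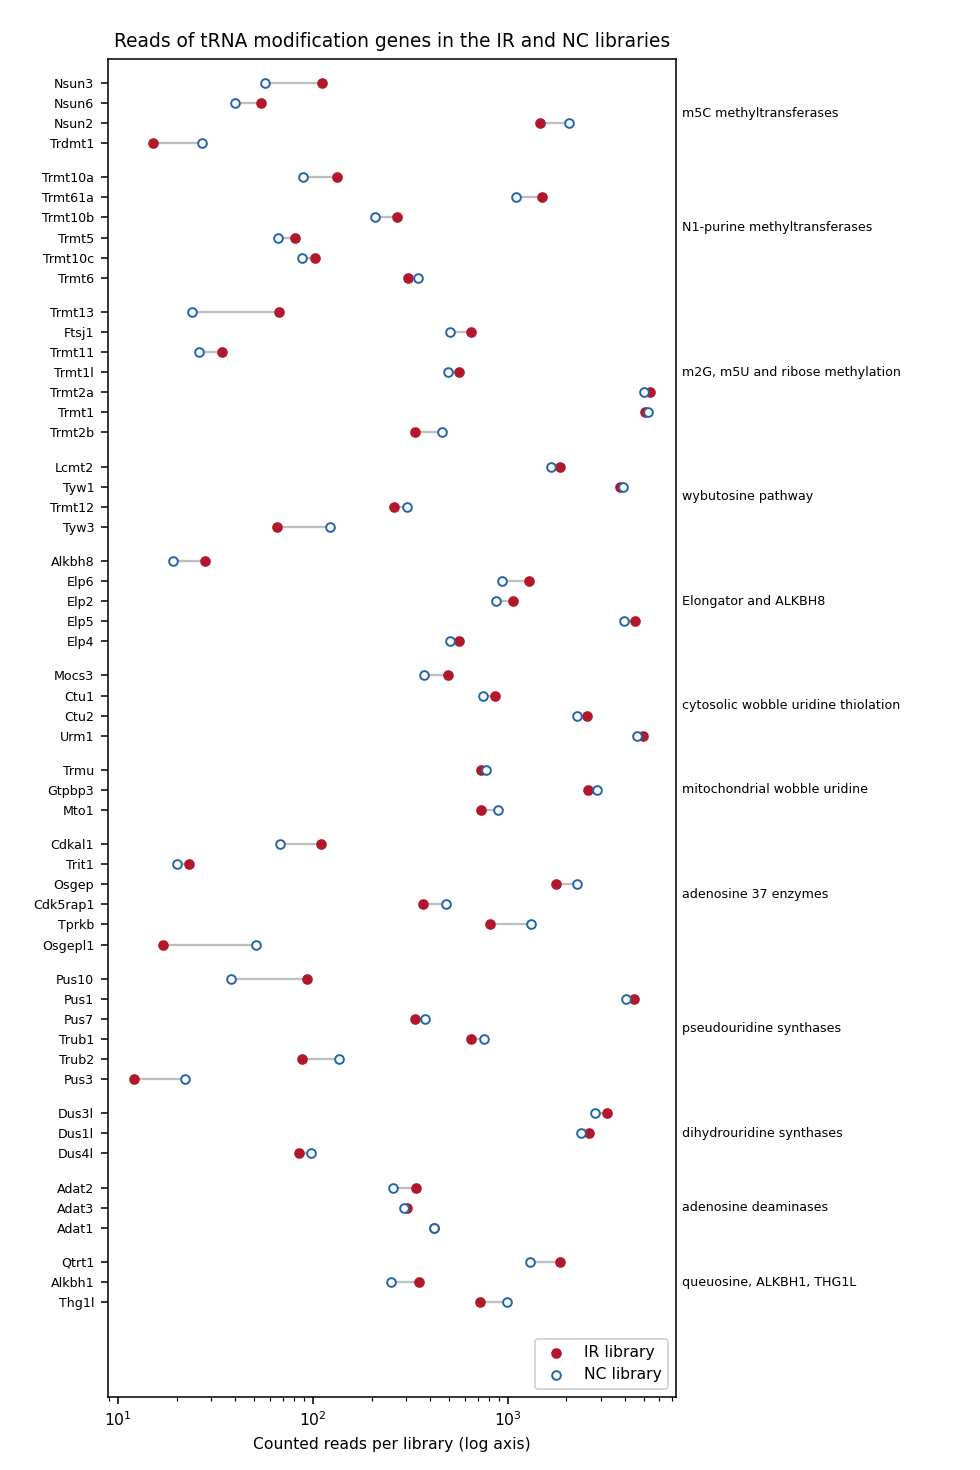
Counted reads of the 54 members in the IR library (filled red) and the NC library (open blue) on a log axis, ordered by role, with a grey line joining the libraries. Distances between the libraries are widest for members with few reads, such as Trmt13 (67 and 24 reads), Osgepl1 (17 and 51) and Pus10 (93 and 38).

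Of the 50 compared members, 32 had a log2 ratio of IR over NC above 0 (64%), against 49.1% of all 10921 compared genes. The median was 0.21 over the members and -0.0069 over all genes. Each ratio has an exact 95% interval that covers counting error only. This interval lay above a ratio of 1 for 25 members (50%, against 31.2% of all genes) and below it for 12 (24%, against 32.4%). Over the 54 members together, the reads came to 1751 CPM in IR against 1620 in NC, a log2 ratio of 0.11. The ratios of single members ran from -1.42 (Osgepl1, 17 and 51 reads) to 1.47 (Trmt13, 67 and 24 reads).

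A member was called different when it was at least 1.5-fold apart and its counting interval excluded a ratio of 1. By this rule 5 members were higher in IR (10%, against a background of 6.09% of all genes) and 3 were lower (6%, against 6.90%). These shares are near the background. The 5 higher were Trmt13 at chr3:116581093-116614587, Pus10 at chr11:23665674-23732876, Nsun3 at chr16:62732444-62786818, Cdkal1 at chr13:29191746-29855674 and Trmt10a at chr3:138143448-138159821. The 3 lower were Tprkb at chr6:85911865-85930284, Tyw3 at chr3:154576431-154597104 and Osgepl1 at chr1:53313624-53326343, in GRCm38 coordinates from GENCODE vM21. At 2-fold, 2 members were higher, where the background was 1.60%, and 1 was lower, where it was 1.82%. Calls depended on depth: 6 of the 11 members with 50 to fewer than 200 reads were called (54.5%), against 34.8% of all genes in that class. Of the 13 members with 200 to fewer than 1000 reads 1 was called (7.69%, against 17.4%), as was 1 of the 26 with 1000 or more (3.85%, against 5.80%).

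Each of the 8 compared members of the cytosolic wobble uridine pathway was higher in IR. Of the 10 listed, Elp3 was not analysed here and Alkbh8 had too few reads to compare. Elongator is a multi-subunit complex that places a carboxymethyl group on the wobble uridine, from which methyl ester and carbamoyl side chains are built. A separate sulfur relay then thiolates the same base in a few tRNAs. These 8 genes had log2 ratios above 0, with a median of 0.26, and each interval lay above a ratio of 1, as did 31.2% of those of all genes and 37.2% of those of genes with 1000 or more reads. None reached 1.5-fold. The other 42 compared members had 57.1% of their ratios above 0, 40.5% of their intervals above a ratio of 1 and a median of 0.14. Partner genes of this pathway that are not members were less uniform. Kti12 had a log2 ratio of 0.20 (interval 0.10 to 0.29) and Trmt112 one of 0.03 (interval -0.04 to 0.10). Dph3 was at -0.02 (interval -0.11 to 0.07) and Nfs1 at -0.15 (interval -0.24 to -0.06). The exons of Kti12, Trmt112 and Nfs1 overlap other genes over 51.3%, 39.1% and 11.2% of their length.

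Within Elongator, Elp6, a subunit of the accessory ring of the complex, had 1289 reads in IR against 933 in NC, or 36.9 and 25.6 CPM. Its log2 ratio was 0.53 (interval 0.41 to 0.65), the highest of the 4 subunits compared. Elp2, a scaffold protein with WD repeats, had 1066 and 872 reads and a ratio of 0.35 (interval 0.22 to 0.48). The other ring subunits were closer between the libraries, Elp5 with 4526 and 3941 reads (log2 ratio 0.26, interval 0.20 to 0.32) and Elp4 with 563 and 505 (16.1 and 13.9 CPM, log2 ratio 0.22, interval 0.04 to 0.40). The interval of Elp6 lies above those of Elp5 and Elp4. Per length, Elp5 (56.6 in IR and 47.2 in NC) stood well above Elp6 (12.9 and 8.92), Elp2 (4.87 and 3.81) and Elp4 (4.86 and 4.18) in both libraries. Alkbh8, the methyltransferase that completes the side chain, had 28 and 19 reads, too few to compare.

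In the thiolation relay, Mocs3, which activates the sulfur carrier, had 493 reads in IR against 370 in NC and the highest ratio of the group (14.1 and 10.2 CPM, log2 ratio 0.47, interval 0.28 to 0.67). Urm1, the ubiquitin-like sulfur carrier itself, was the most abundant per length (33.3 and 29.6) and had the lowest ratio, 0.17 (interval 0.11 to 0.23), from 4973 and 4607 reads, or 143 and 126 CPM. The thiouridylase subunits Ctu1 (856 and 743 reads, log2 ratio 0.27) and Ctu2 (2538 and 2265 reads, log2 ratio 0.23) were close to each other. Of the exon sequence of Ctu2, 47.3% overlaps Piezo1 on the opposite strand.

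The mitochondrial counterparts did not share this direction. Mto1 and Gtpbp3 together add a taurine side chain to the wobble uridine of mitochondrial tRNAs, and Trmu thiolates it. Mto1 had 726 reads in IR against 890 in NC (20.8 and 24.4 CPM, log2 ratio -0.23, interval -0.37 to -0.09), Gtpbp3 had 2596 and 2869 (log2 ratio -0.08, interval -0.16 to -0.0047) and Trmu had 726 and 774 (20.8 and 21.2 CPM, log2 ratio -0.03, interval -0.18 to 0.12). The 9 compared members that act wholly or mainly in mitochondria had a median of -0.23. Of these, 7 were below 0 and 2 above, and for 6 (66.7%) the interval lay below a ratio of 1, against 32.4% of all genes. The 2 above 0 were Nsun3 and Trmt10c. Among the 6 intervals, that of Gtpbp3 ended at -0.0047, so its side depends on the scaling. Upper quartile scaling moved the median over all compared members by a larger step, from 0.21 to 0.24. The 41 other compared members had a median of 0.23, with 73.2% of ratios above 0 and 14.6% of intervals below a ratio of 1. Some of these 41 also act in mitochondria, such as Alkbh1 (log2 ratio 0.53, interval 0.30 to 0.78). The contrast therefore depends on which members were listed as mitochondrial, a choice made with earlier results of these data known. The mitochondrial median came to -0.08 without Osgepl1 and Trub2, whose exons overlap other genes, and 5 of the remaining 7 were still below 0.

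**Figure D2:**
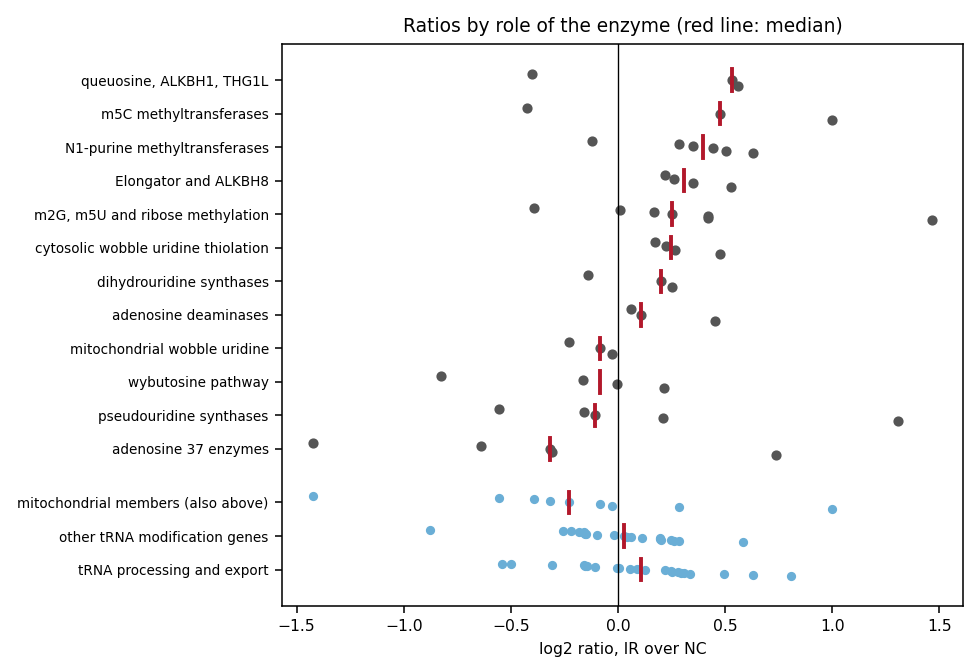
Log2 ratio of IR over NC for each compared member by role, ordered by median (red line), followed by the mitochondrial members, the other tRNA modification genes and the tRNA processing genes (light blue). The points of both cytosolic wobble uridine groups lie right of 0, and 7 of the 9 mitochondrial points lie left of it.

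Enzymes listed as adding groups to the adenosine next to the anticodon were mostly lower in IR. This base receives either a threonylcarbamoyl group, made by the KEOPS complex in the cytosol and by OSGEPL1 in mitochondria, or an isopentenyl group made by TRIT1, and CDKAL1 and CDK5RAP1 then add methylthio groups. Of the 5 compared genes 4 were below 0, with a median of -0.32. For 80% the interval lay below a ratio of 1, against 32.4% of all genes. Osgepl1 and Cdk5rap1 are also among the mitochondrial members above, so the lower ratios of both groups come partly from the same genes. Adat1 (log2 ratio 0.06), which deaminates this adenosine in alanine tRNA, was listed elsewhere. So was Yrdc (log2 ratio 0.29), which makes the threonylcarbamoyl donor. Tprkb, a regulatory subunit of KEOPS, had 813 reads in IR against 1323 in NC, or 23.3 and 36.3 CPM. Its log2 ratio was -0.64 (interval -0.77 to -0.51), the only call among the 26 members with 1000 or more reads. Osgep, the catalytic subunit, was also lower, with 1763 and 2280 reads (log2 ratio -0.31, interval -0.40 to -0.22).

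Osgepl1 had only 17 reads in IR against 51 in NC (0.487 and 1.40 CPM), and its log2 ratio of -1.42 was the lowest of all members, with a wide interval from -2.41 to -0.71. Its exons overlap other genes over 11.6% of their length. Cdk5rap1, the mitochondrial methylthiotransferase, had 369 and 480 reads (log2 ratio -0.32, interval -0.52 to -0.12). Cdkal1, its cytosolic relative, went the other way, with 110 and 68 reads, or 3.15 and 1.87 CPM, and a ratio of 0.74 (interval 0.31 to 1.21). Trit1 had 23 and 20 reads and was not compared.

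Among cytosine methyltransferases, Nsun3, which methylates the wobble cytosine of mitochondrial methionine tRNA, had 111 reads in IR against 57 in NC (3.18 and 1.56 CPM, log2 ratio 0.998, interval 0.55 to 1.51), while Nsun2, the main enzyme for cytosolic tRNAs, had 1464 and 2053 (42.0 and 56.4 CPM, log2 ratio -0.42, interval -0.52 to -0.33). The paralogs therefore lay on opposite sides of 0, and their intervals do not overlap. The exons of Nsun2 overlap other genes over 11.1% of their length. Nsun2 was far the more abundant per length, at 7.31 in IR and 9.82 in NC against 0.523 and 0.257 for Nsun3. Nsun6, which methylates the acceptor stem of a few tRNAs, had 54 and 40 reads and an interval that included no difference (-0.12 to 1.12). Trdmt1, a relative of the DNA methyltransferases that acts on the anticodon loop, had 15 and 27 reads and was not compared.

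Methyltransferases that modify adenosine or guanosine at the N1 atom had 5 of 6 ratios above 0 and a median of 0.40. Trmt10a, which methylates the guanosine between the acceptor and D stems of cytosolic tRNAs, had 133 reads in IR against 89 in NC and was called higher (3.81 and 2.44 CPM, log2 ratio 0.63, interval 0.24 to 1.05). Its relative Trmt10b had 270 and 207 reads (log2 ratio 0.44, interval 0.18 to 0.71). Trmt10c, the subunit of mitochondrial RNase P, had 103 and 88 (log2 ratio 0.28), and its interval included no difference. Trmt5, which methylates guanosine next to the anticodon, had 81 and 66 reads (log2 ratio 0.35) and likewise an interval that included no difference.

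The N1-adenosine methyltransferase of the T-loop is built from Trmt61a, which holds the catalytic site, and Trmt6, which helps to bind tRNA. Trmt61a had 1503 reads in IR against 1107 in NC, or 43.1 and 30.4 CPM (log2 ratio 0.50, interval 0.39 to 0.62). Trmt6 had 306 and 348 reads, or 8.77 and 9.55 CPM (log2 ratio -0.12, interval -0.35 to 0.10). The difference between these partners was 0.63 (interval 0.37 to 0.88). Such a difference between 2 genes of the same libraries does not depend on how the libraries are scaled. Per length, Trmt61a was 10.9 times Trmt6 in IR and 7.04 times in NC.

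Similar comparisons were made for 10 pairs of partner genes, which were picked with their values known. Qtrt1, the catalytic subunit of the transglycosylase that inserts queuine at the wobble guanosine, had 1847 reads in IR against 1307 in NC, or 52.9 and 35.9 CPM. Its ratio of 0.56 (interval 0.46 to 0.66) lay just under 1.5-fold. Its accessory subunit, listed as Qtrtd1 and also called Qtrt2, had 340 and 425 reads (log2 ratio -0.26), and the difference between them was 0.82 (interval 0.59 to 1.06). Ftsj1, a ribose methyltransferase of the anticodon loop whose loss causes intellectual disability in humans, had 646 and 503 reads (log2 ratio 0.42, interval 0.25 to 0.59). Its partner Wdr6 had 5590 and 6486 (log2 ratio -0.15), a difference of 0.58 (interval 0.40 to 0.75). In KEOPS, the log2 ratio of Osgep exceeded that of Tprkb by 0.33 (interval 0.17 to 0.49).

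For other partners the sign of the difference was uncertain. The difference between Ctu2 and Ctu1 was -0.04 (interval -0.21 to 0.13), that between Gtpbp3 and Mto1 0.15 (interval -0.01 to 0.31), that between the KEOPS subunits Lage3 and Osgep 0.15 (interval -0.05 to 0.35) and that between Trmt10c and its RNase P partner Hsd17b10 0.39 (interval -0.04 to 0.82). Each of these intervals includes 0 and also leaves room for a difference. For the m7G enzyme, the log2 ratio of Wdr4 exceeded that of Mettl1 by 0.41 (interval 0.30 to 0.51), within the range of the other pairs. Per length Wdr4 was the lower gene, at 0.757 times Mettl1 in IR and 0.571 times in NC. The exons of Wdr4 overlap another gene over 10.8% of their length. What difference unrelated gene pairs would show was not tested.

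**Figure D3:**
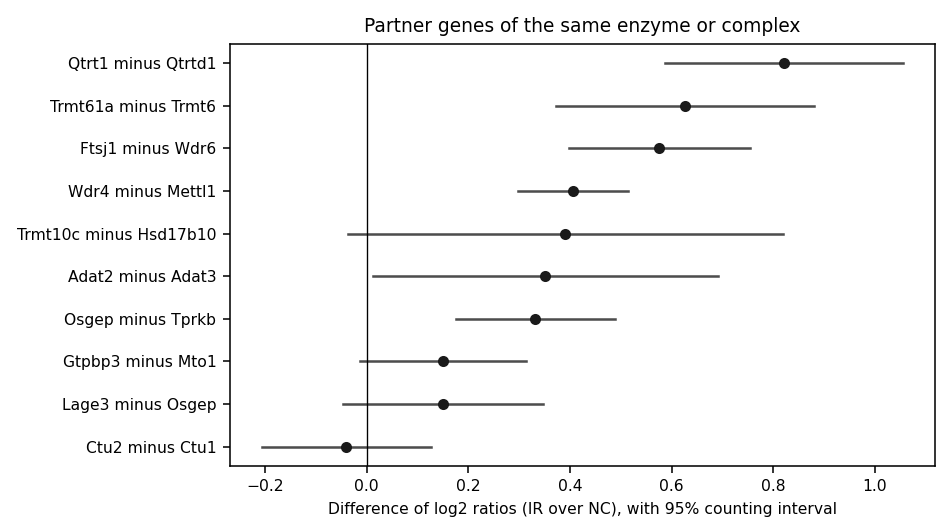
Difference between the log2 ratios (IR over NC) of partner genes, first minus second, with 95% counting intervals, for 10 pairs of the same enzyme or complex. The order within a pair sets the sign of its difference. The values run from -0.04 for Ctu2 and Ctu1 to 0.82 for Qtrt1 and Qtrtd1.

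The wobble adenosine deaminase, which makes inosine, also consists of a catalytic subunit, Adat2, and a partner, Adat3. Adat2 had 338 reads in IR against 257 in NC (9.69 and 7.05 CPM, log2 ratio 0.45, interval 0.22 to 0.70), with 17.0% of its exon sequence overlapping Pex3. Adat3 had 303 and 294 reads (log2 ratio 0.11), but GENCODE vM21 names its identifier Gm49322, and 71.9% of the exon sequence of that model overlaps Scamp4 and a separate gene model named Adat3. Reads of neighbouring genes may be among those counted, so its value and the difference of 0.35 between the partners (interval 0.01 to 0.69) are uncertain. Adat1, which deaminates the adenosine beside the anticodon of alanine tRNA, had 418 reads in each library (12.0 and 11.5 CPM, log2 ratio 0.06, interval -0.14 to 0.26).

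The methyltransferases for guanosine N2, m5U and ribose, Ftsj1 among them, had 6 of 7 ratios above 0 and a median of 0.25. Trmt13, which methylates ribose in the acceptor stem, had 67 reads in IR against 24 in NC (1.92 and 0.659 CPM) and the highest ratio of all members, 1.47 (interval 0.85 to 2.28). Of its exon sequence 19.7% overlaps Lrrc39 and Sass6. The most abundant genes of this group differed little. Trmt2a, the m5U methyltransferase of the T-loop, had a ratio of 0.17 (interval 0.11 to 0.23) from 5398 and 5009 reads, with 16.5% of its exon sequence overlapping other genes, and Trmt1, which makes dimethylguanosine, one of 0.01 (interval -0.05 to 0.07) from 5054 and 5242. Trmt2b, the mitochondrial relative of Trmt2a, was lower, with 333 and 457 reads (9.55 and 12.5 CPM, log2 ratio -0.39, interval -0.60 to -0.19). Trmt1l, a relative of Trmt1, had 563 and 493 reads (log2 ratio 0.25), and Trmt11, a guanosine N2-methyltransferase, had 34 and 26 with an interval from -0.33 to 1.24.

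The wybutosine pathway converts a guanosine next to the anticodon of phenylalanine tRNA into a bulky tricyclic base in steps that follow Trmt5. Tyw1, the iron-sulfur enzyme that forms the ring, had 3751 reads in IR against 3928 in NC and a ratio of -0.0041 (interval -0.07 to 0.06). Trmt12, which adds a side chain to that ring, had 261 and 305 reads (log2 ratio -0.16), with an interval that included no difference. Tyw3, a methyltransferase, was called lower, with 65 and 122 reads (1.86 and 3.35 CPM, log2 ratio -0.83, interval -1.30 to -0.40). Lcmt2, the homolog of the yeast enzyme of a late step, had 1863 and 1676 (53.4 and 46.0 CPM, log2 ratio 0.21, interval 0.12 to 0.31). Of these 4 genes, 3 were below 0, and the intervals of Tyw1 and Trmt12 included no difference.

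Pseudouridine synthases rotate uridine on its sugar without adding a group. Pus10, which acts in the T-loop, had 93 reads in IR against 38 in NC (2.67 and 1.04 CPM), and its ratio of 1.31 (interval 0.79 to 1.94) was second only to that of Trmt13. Pus1, the most abundant member per length, had 4468 and 4027 reads (log2 ratio 0.21, interval 0.15 to 0.27), with 30.1% of its exon sequence overlapping other genes. Trub2, a mitochondrial synthase, had 88 and 136 reads (2.52 and 3.73 CPM, log2 ratio -0.56, interval -0.97 to -0.17), and 17.1% of its exon sequence overlaps other genes. Trub1, which acts in the T-loop, had 646 and 752 reads (log2 ratio -0.16, interval -0.31 to -0.0032). Pus7, a stand-alone synthase, had 333 and 375 (log2 ratio -0.11), and its interval included no difference. Pus3 had 12 and 22 reads, and 88.1% of its exon sequence overlaps Hyls1.

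Dihydrouridine synthases reduce uridines in the D-loop and variable loop. Dus3l had 3215 reads in IR against 2814 in NC (92.2 and 77.2 CPM, log2 ratio 0.25, interval 0.18 to 0.33), and Dus1l had 2608 and 2369 (log2 ratio 0.20, interval 0.12 to 0.28). Dus4l, with 85 and 98 reads (2.44 and 2.69 CPM), had a ratio of -0.14 and an interval from -0.58 to 0.29. Of the 2 members not placed above, Alkbh1, a dioxygenase that removes N1-methyl groups from adenosine and oxidises the wobble methylcytosine laid down by NSUN3, had 350 and 252 reads (log2 ratio 0.53, interval 0.30 to 0.78). Thg1l, which adds the extra guanosine that marks histidine tRNA, had 717 and 988 (20.6 and 27.1 CPM, log2 ratio -0.40, interval -0.54 to -0.26).

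**Figure D4:**
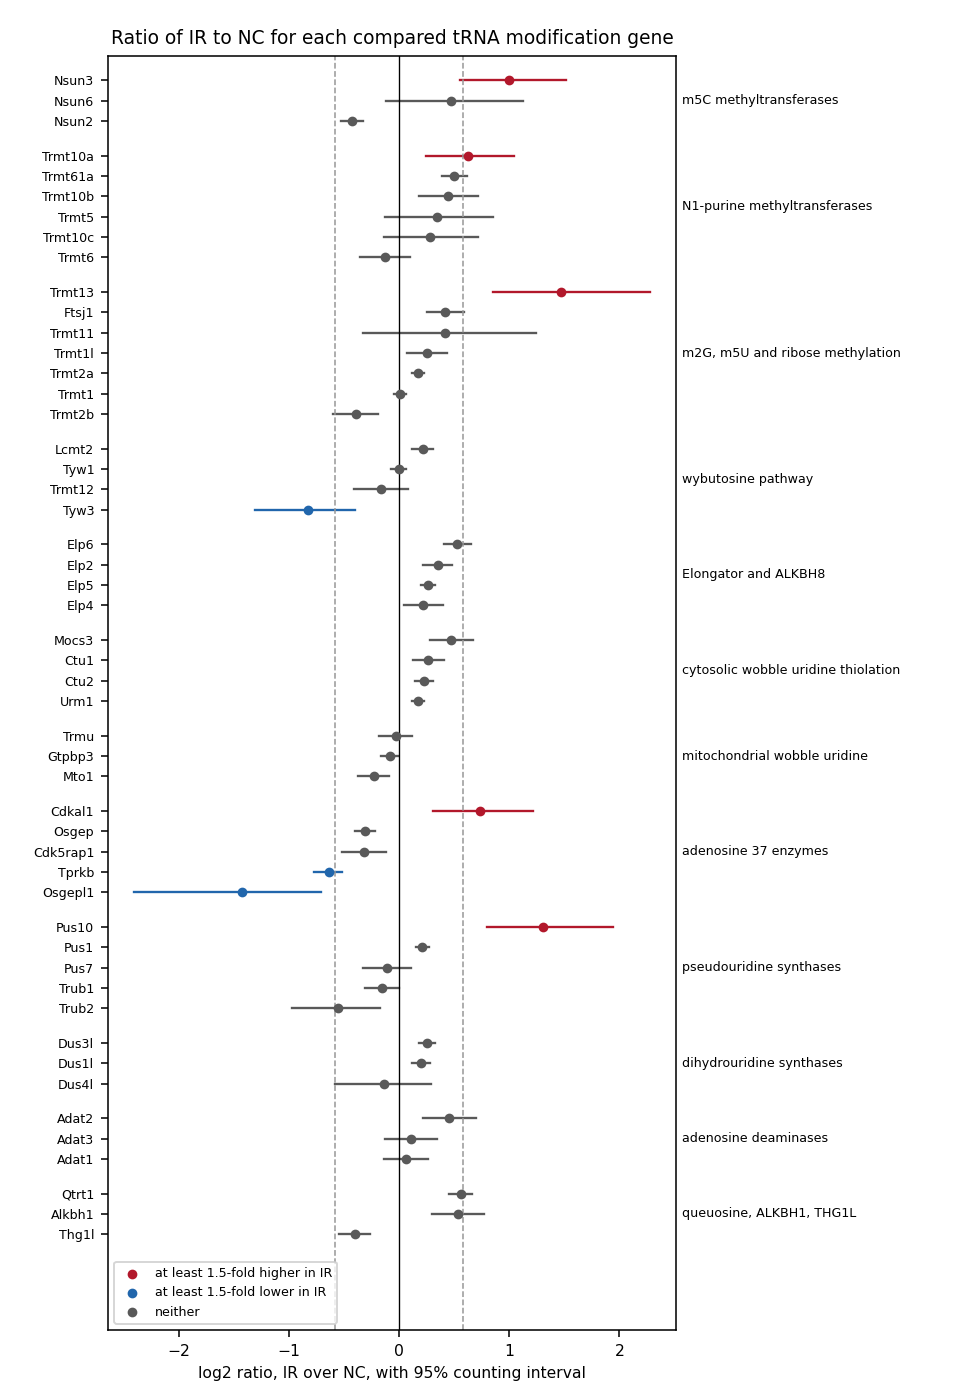
Log2 ratio of IR over NC with its 95% counting interval for each of the 50 compared members, ordered by role, with dashed lines at 1.5-fold. Members called higher (red, 5) and lower (blue, 3) are spread over 6 of the 12 roles.

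Other tRNA modification genes and partner proteins, a further list of 30 symbols, had a median nearer 0. Of the 21 compared, 11 were above 0, with a median of 0.03. The highest were the pseudouridine synthase relative Rpusd2 (356 reads in IR against 247 in NC, log2 ratio 0.59), Yrdc, which makes the threonylcarbamoyl donor used by KEOPS (6351 and 5442 reads, log2 ratio 0.29), and Pusl1 (924 and 805 reads, log2 ratio 0.26). The exons of Yrdc overlap other genes over 24.8% of their length and those of Pusl1 over 29.9%. The lowest were Mettl6, which makes 3-methylcytidine in serine tRNA (247 and 475 reads, log2 ratio -0.88), Qtrtd1 (log2 ratio -0.26) and Thumpd1, a tRNA-binding partner of the acetyltransferase NAT10 (1372 and 1670 reads, log2 ratio -0.22). Of this list Rpusd2 and Mettl6 were called (9.52%, against 13.0% of all genes in either direction).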

How the data were processed

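RNA labelled as from mouse lung fibroblasts was sequenced as 1 library labelled IR and 1 labelled NC. In the deposited table, per its headers, the values used are raw counts of reads by gene. The submitters' processing notes name build mm10 and the tools HTSeq 0.9.1, edgeR, HISAT2 and cutadapt 1.9.3. The annotation release and the strand setting are not given in the sources used here. A further 2 value columns were not used.

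Library sizes were scaled with TMM factors (edgeR 4.0.16 in R 4.3.3, 0.991 for IR and 1.01 for NC). Log2 ratios of IR over NC were taken from log2 CPM (prior count 2). A filter of at least 50 reads over both libraries left 10921 genes. Intervals are exact 95% Clopper-Pearson intervals of a gene's reads split between the libraries. Differences between partner genes are conditional log2 odds ratios (scipy 1.17.1). All intervals, and the floor of 3 counts (0.0860 CPM in IR, 0.0824 in NC), cover counting error only, and PCR copies are not independent molecules. With 1 library a group no test was possible. The procedure was tested on simulated counts with counting error only. That test held no variation between replicate libraries, so it cannot show how the calls would behave across them.

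Exon lengths and overlaps came from GENCODE vM21 (GRCm38, the same assembly as mm10), and all 54 members described matched by identifier. A further listed gene is not reported here. The members, roles, lists and partner pairs were chosen with earlier results of these data known. Members called different, and the highest and lowest of each role, are given with reads, CPM and interval. The 3 highest and 3 lowest of other lists are named. Alternatives were other scalings (total counts, upper quartile, DESeq2 1.42.0 size factors), prior counts, filters, fold rules and trend centring, and leaving out members with exon overlap.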

Additional observations from a re-analysis of the deposited data

How the results depend on the processing

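The median over members stayed above that of all genes under all 11 alternatives, from 0.17 (at least 200 reads) to 0.24 (upper quartile), and the number of ratios above 0 ranged from 24 of 39 to 34 of 54. With at least 200 reads, 1 member was at least 1.5-fold higher (Trmt10a) and 1 lower (Tprkb), in place of 5 and 3, because the members with fewer reads were no longer compared. With the 2-fold rule 2 were higher and 1 was lower. Upper quartile scaling added Qtrt1 to the 1.5-fold calls, with a ratio of 0.59, for 6 higher. The 25 members described with full values kept their ratio within its counting interval under the other scalings, prior counts and centrings. Filters and left-out members cannot change a single ratio. The cytosolic wobble uridine members compared stayed above 0 and the listed mitochondrial members mostly below 0 under all alternatives. Leaving out members that share at least 10% of their 50-base words with other genes, an alternative added after the data were seen, left 4 higher and 2 lower, as did leaving out those with exon overlap. No paired analysis was possible because each group has 1 library. Members with 50 to fewer than 200 reads have wide intervals, so their order is uncertain.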

Other observations

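Genes that cut, splice and export tRNA, a list of 23, had a median log2 ratio of 0.11 over the 22 compared, with 14 above 0. The highest were subunits of RNase P, the enzyme that removes the leader of precursor tRNA: Pop4 had 720 reads in IR against 429 in NC (log2 ratio 0.81, interval 0.63 to 0.99) and Pop1 had 857 and 577 (log2 ratio 0.63, interval 0.48 to 0.79). Elac2, which removes the trailer, had 1998 and 1479 reads (log2 ratio 0.50). The RNase P subunit Rpp38 was lower, at 50 and 77 reads (log2 ratio -0.54, interval -1.10 to -0.03), as was Xpot, the nuclear export receptor for tRNA, with 1410 and 2084 (log2 ratio -0.50, interval -0.60 to -0.40), and Elac1 with 73 and 95 (log2 ratio -0.31, interval -0.78 to 0.14). Of this list Pop4 and Pop1 were called at 1.5-fold (9.09%, against 13.0% of all genes).

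The deposited gene ontology column gave 53 further genes with tRNA processing or modification terms, some of them in the lists above. Of the 49 compared, 29 were above 0, with a median of 0.06.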
